A study of Homo sapiens and Mus musculus with 8 samples.

Results

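The genes described here code for laminin-332, for the receptors and hemidesmosome proteins that hold cells to it, and for claudin-1, in OVCAR-8 cells, an established human ovarian cancer line. They are 9 genes of the 58381 in the table: the ligand chains LAMA3 and LAMB3, the receptor chains ITGA3, ITGA6 and ITGB4, the receptor partner CD151, the hemidesmosome proteins COL17A1 and PLEC, and the tight junction gene CLDN1. The set was drawn up with the measured difference between sgATG9A and sgGAL4 cells in view, so its values in that contrast are a description and carry no test. Bulk RNA was measured in cells edited with either guide. The sgATG9A cells carried a guide against ATG9A, the gene of an autophagy lipid scramblase, and the sgGAL4 cells carried the control guide against GAL4, a yeast gene. Both kinds of cells received their guide in a lentiviral vector that also encodes Cas9, there were 2 libraries per group, labelled as biological replicates, and no age or further treatment is labelled for them. Whether the edited cells were single clones or pools is not given in the sources used here.

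Laminin-332 is a trimeric protein, with chains coded by LAMA3 and LAMB3 among its parts, and is secreted into the basement membrane under epithelia. Cells bind it through α3β1 integrin, which joins to actin, and through α6β4 integrin, which joins to keratin filaments at hemidesmosomes by way of plectin and collagen XVII. CD151 is a tetraspanin that associates with laminin-binding integrins, and claudin-1 is a strand-forming protein of tight junctions, at the other end of the epithelial cell.

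The libraries held 22709310 and 22969233 counts in sgATG9A cells and 22200998 and 22782243 counts in sgGAL4 cells. Levels are in CPM, a gene's counts scaled by the TMM-normalised library total, and differences are sgATG9A minus sgGAL4 on the log2 scale from edgeR, with their SE. The correlation (Pearson's r) of libraries over genes on the log2 CPM scale, where genes are not independent replicates, was 0.9937 within sgATG9A and 0.9936 within sgGAL4, and 0.9847 to 0.9855 between the groups. ATG9A itself was at 12.8 and 11.5 CPM in sgATG9A cells, against 20.4 and 18.4 CPM in sgGAL4 cells, a difference of -0.68 ± 0.10 (SE). The RNA level does not measure the edit itself, and 38.8% of the exon bases of ATG9A overlap another gene model, so its level checks the labels only in part. The epithelial markers KRT8 and KRT18 were abundant, with 1262 and 454 CPM on average in sgATG9A cells and 2098 and 805 CPM in sgGAL4 cells, and PAX8, a transcription factor of ovarian and Müllerian epithelium, averaged 125 CPM in sgATG9A cells and 54.2 CPM in sgGAL4 cells. CDH1, MUC16, SOX17 and EMX2 were under 1 CPM in all libraries, so these defining markers were low or absent. Macrophage markers summed to 1.85 and 1.80 CPM in sgATG9A cells against 1.96 and 2.20 CPM in sgGAL4 cells, with PTPRC, CD163 and TYROBP at 0 in every library. Fibroblast and mesothelial markers summed to 260 and 268 CPM in sgATG9A cells against 433 and 473 CPM in sgGAL4 cells, mostly from COL1A1, with DCN at 0, and the part of these shifts in the results below was not tested. A gene's RNA per cell and the share of cells that make it cannot be told apart in bulk libraries.

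All 9 genes passed the filter on low counts, each with at least 23 counts in every library. A gene is called here at an adjusted p under 0.05 over the 16141 genes tested, by edgeR's quasi-likelihood test, two-sided. Of the 9, 5 were called higher in sgATG9A cells (LAMA3, LAMB3, ITGA6, COL17A1 and CLDN1), 3 were called lower (ITGB4, ITGA3 and PLEC), and CD151 was not called. Over all genes tested, 16.3% were called, 8.93% as higher and 7.42% as lower. A log2 difference above 1 was also met by 4 of the 9, against 1.28% of all genes, and one below -1 by ITGB4, against 0.644%. The 2 groups of libraries did not overlap in CPM for any of the 9 genes, and 55.3% of all genes were separated in this way. Because the genes were picked on this contrast, nothing is read from these shares. The median difference was 0.18 over the 9 genes and -0.0022 over all genes tested.

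**Figure D1:**
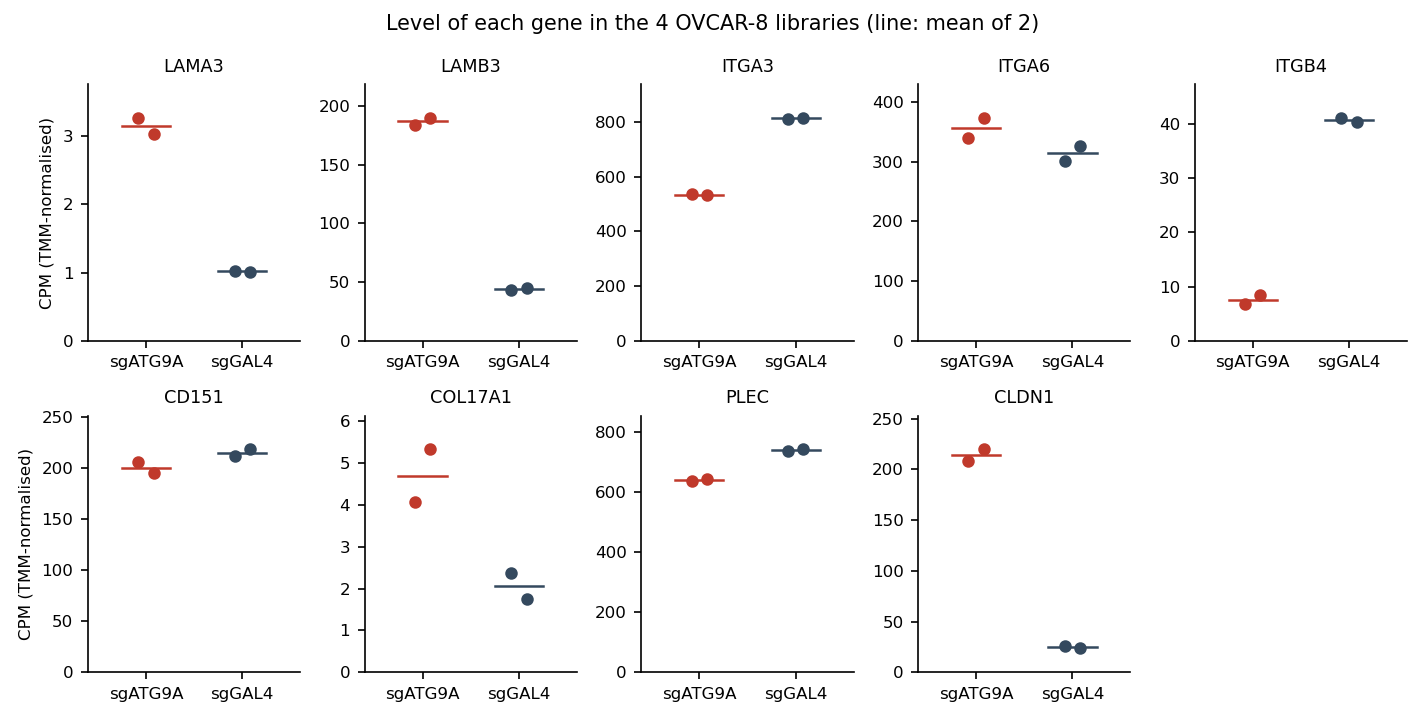
Levels of the 9 genes in each library, in CPM on a linear axis of its own for each gene, with sgATG9A libraries to the left of sgGAL4 libraries, one point per library and a line at the mean of 2. Both sgATG9A libraries lie above both sgGAL4 libraries for the laminin chains and CLDN1, and far below them for ITGB4, at 6.85 and 8.39 CPM in sgATG9A cells against 41.1 and 40.3 CPM in sgGAL4 cells.

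The ligand chains were both higher in sgATG9A cells. LAMB3, the β chain (chromosome 1, 209614870 to 209652466, minus strand, GRCh38), was at 184 and 190 CPM in sgATG9A cells, against 43.5 and 44.9 CPM in sgGAL4 cells. The pairs of libraries were close within each group and wide apart between groups, at a log2 difference of 2.08 ± 0.05 (SE) and a 4.22-fold ratio. Of all genes tested, 78 had a higher log2 difference than LAMB3.

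LAMA3, the α chain (chromosome 18, 23689443 to 23956222, plus strand), was low in all libraries, with 74 and 69 counts in sgATG9A cells against 23 and 23 counts in sgGAL4 cells. That is 3.27 and 3.03 CPM against 1.03 and 1.01 CPM, and the groups do not overlap. The log2 difference was 1.62 ± 0.27, with a 95% interval of 1.07 to 2.18, and the ratio of the counts was 3.09 with an exact 95% interval of 2.20 to 4.41 that covers counting error only. Per kilobase of exon, LAMA3 averaged 0.215 CPM in sgATG9A cells and 0.0694 CPM in sgGAL4 cells. LAMB3 averaged 39.8 CPM per kilobase in sgATG9A cells and 9.44 in sgGAL4 cells, so the α chain was far below the β chain in both groups on this scale. The levels per length depend on the reads covering whole transcripts, and the labels name a kit that reads 3′ ends, whereas the methods describe paired-end reads. The exon length also pools all annotated transcripts of a gene.

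The receptor chains moved in different directions. ITGB4, the β4 chain that pairs with α6 alone (chromosome 17, 75721328 to 75757818, plus strand), was at 6.85 and 8.39 CPM in sgATG9A cells, against 41.1 and 40.3 CPM in sgGAL4 cells. Both sgATG9A libraries were far below both sgGAL4 libraries, at a log2 difference of -2.42 ± 0.10, and 14 of the 16141 genes had a lower one. ITGA3, the α3 chain (chromosome 17, 50055968 to 50090481, plus strand), was at 535 and 534 CPM in sgATG9A cells, against 812 and 815 CPM in sgGAL4 cells. Its difference was -0.61 ± 0.04, and libraries within a group were nearly equal.

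ITGA6, the α6 chain (chromosome 2, 172427354 to 172506282, plus strand), was at 339 and 373 CPM in sgATG9A cells, against 301 and 327 CPM in sgGAL4 cells. The lower sgATG9A library lay close above the higher sgGAL4 library, and the difference was 0.18 ± 0.06. That call was lost without sgATG9A replicate 2, at 0.11, without sgGAL4 replicate 1, at 0.12, and with no filter on low counts. Antisense genes overlap 5.37% of its exon bases, and the authors' counting did not use strand. CD151 (chromosome 11, 832843 to 839831, plus strand) was at 206 and 195 CPM in sgATG9A cells, against 212 and 219 CPM in sgGAL4 cells. Its difference of -0.10 has a 95% interval of -0.21 to 0.01, which does not show that the groups are alike, and genes on the other strand overlap 7.57% of its exon bases.

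**Figure D2:**
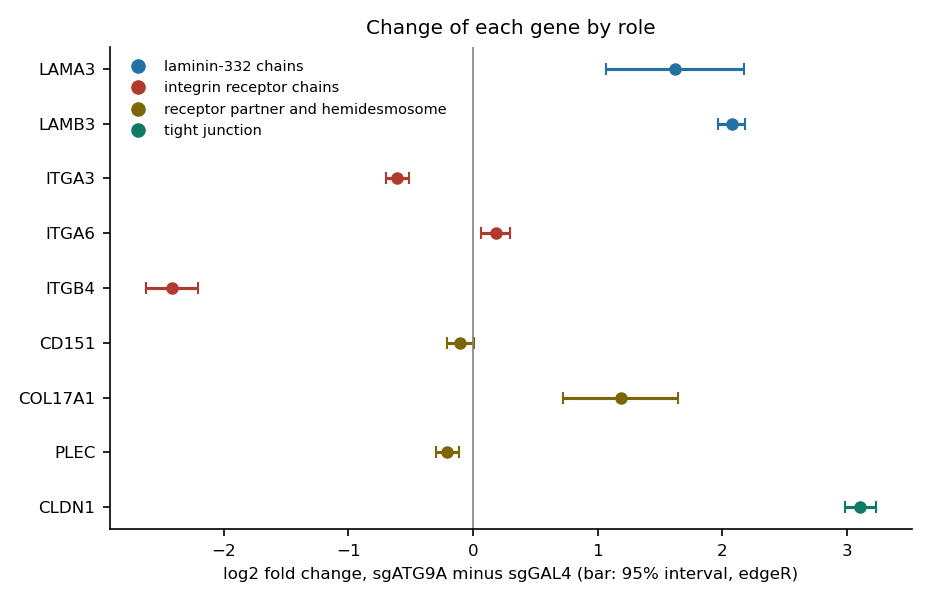
Log2 difference, sgATG9A minus sgGAL4, of each of the 9 genes, coloured by role, as points with 95% intervals from the edgeR fit. The laminin chains and CLDN1 lie between 1.62 and 3.11, ITGA6, PLEC and CD151 lie near 0, and ITGB4 lies at -2.42.

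The hemidesmosome proteins differed from each other. COL17A1, collagen XVII (chromosome 10, 104031286 to 104085957, minus strand), was at 92 and 121 counts in sgATG9A cells, against 53 and 40 counts in sgGAL4 cells. That is 4.06 and 5.32 CPM in sgATG9A cells against 2.36 and 1.76 CPM in sgGAL4 cells, with no overlap, at a log2 difference of 1.18 ± 0.22. The call was lost with no filter on low counts. When a library was left out, the difference of COL17A1 was 0.98 to 1.41, so it did not always stay above 1. PLEC, plectin (chromosome 8, 143915147 to 143976734, minus strand), was at 637 and 646 CPM in sgATG9A cells, against 738 and 743 CPM in sgGAL4 cells. This was a small difference of -0.21 ± 0.04, and the libraries of a group were close to each other.

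Claudin-1 had the highest difference of the 9 genes. CLDN1 (chromosome 3, 190305701 to 190322475, minus strand) was at 208 and 220 CPM in sgATG9A cells, against 25.6 and 24.1 CPM in sgGAL4 cells. The groups were apart by 3.11 ± 0.06 on the log2 scale, an 8.62-fold ratio, and 37 genes had a higher value.

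The start regions of CLDN1 and LAMB3 are shown because both genes were strongly higher in sgATG9A cells. The RefSeq promoter table (GRCh38.p14) gives 250 bases before to 50 after a start site and held 8 entries for 5 of the 9 genes. They were searched on both strands for AP-1 (TGANTCA) and for a loose κB motif, which can overlap itself. The κB motif allowed several bases at its inner positions, as in GGGGCGCTCC of CLDN1 and GGGAGTCTCC and GGAGACCCCC of LAMB3. Capitals mark the matches, which are not shown to be sites. In CLDN1 a κB match starts 70 bases before the start, in the first LAMB3 window printed 3 start 59, 11 and 10 bases before it (the last pair overlap), and in the second LAMB3 window printed an AP-1 match starts 67 bases before it. A further LAMB3 window, not printed, overlaps the first and holds the same 3 κB matches at 155, 107 and 106 bases before its own start, and no AP-1 match. Of all 35116 promoter windows in the table, 7.71% hold an AP-1 match and 11.3% a κB match. The LAMA3 window held AP-1 matches 125 and 69 bases before its start, and the windows of ITGA6 and COL17A1 held neither motif.
CLDN1, chr3:190322397-190322696, minus strand: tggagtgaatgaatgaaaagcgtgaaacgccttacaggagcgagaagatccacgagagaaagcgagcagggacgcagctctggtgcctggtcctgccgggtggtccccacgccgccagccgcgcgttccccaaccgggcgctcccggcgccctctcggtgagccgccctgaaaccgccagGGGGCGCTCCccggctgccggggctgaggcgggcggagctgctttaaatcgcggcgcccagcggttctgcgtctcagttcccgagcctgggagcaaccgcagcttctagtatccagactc
LAMB3, chr1:209652376-209652675, minus strand: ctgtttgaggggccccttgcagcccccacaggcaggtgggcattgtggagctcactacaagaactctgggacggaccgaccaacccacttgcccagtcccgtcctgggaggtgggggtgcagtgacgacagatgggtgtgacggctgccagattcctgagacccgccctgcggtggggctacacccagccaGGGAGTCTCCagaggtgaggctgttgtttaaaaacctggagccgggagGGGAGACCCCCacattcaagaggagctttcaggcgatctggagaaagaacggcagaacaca
LAMB3, chr1:209651325-209651624, minus strand: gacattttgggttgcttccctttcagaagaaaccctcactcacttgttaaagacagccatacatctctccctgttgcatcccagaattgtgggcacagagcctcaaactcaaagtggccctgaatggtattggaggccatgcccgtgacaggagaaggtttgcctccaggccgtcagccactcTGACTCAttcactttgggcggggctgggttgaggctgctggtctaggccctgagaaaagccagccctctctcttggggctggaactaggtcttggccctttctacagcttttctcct

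Within a library, a log2 ratio of 2 genes is free of the scaling between libraries. The log2 CPM used here hold an added prior count of 2, so ratios with a low gene such as LAMA3 differ from those of the CPM given above. The receptor chains averaged here were ITGA3, ITGA6 and ITGB4, without ITGB1. Their fitted differences were unlike, at -0.61, 0.18 and -2.42. The mean of the ligand chains LAMA3 and LAMB3 minus the mean of these receptor chains was -2.12 and -2.29 in sgATG9A cells. In sgGAL4 cells it was -4.95 and -4.97, a shift of 2.76. LAMB3 over ITGB4 was 4.73 and 4.48 in sgATG9A cells, against 0.08 and 0.16 in sgGAL4 cells. ITGB4 over its partner ITGA6 was -5.61 and -5.46 in sgATG9A cells, against -2.87 and -3.02 in sgGAL4 cells. For the other pair of receptor chains, ITGA3 over ITGB1 was -0.84 and -0.89 in sgATG9A cells, against 0.04 and 0.03 in sgGAL4 cells. Between the ligand chains, LAMA3 over LAMB3 was -5.77 and -5.93 in sgATG9A cells, against -5.29 and -5.35 in sgGAL4 cells, a shift of -0.53. The prior count widens this shift, since it raises LAMA3 most in sgGAL4 cells. The fitted differences were 1.62 ± 0.27 for LAMA3 and 2.08 ± 0.05 for LAMB3, so a change in their balance is not shown. These ratios combine genes chosen on this contrast, so they have no test.

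**Figure D3:**
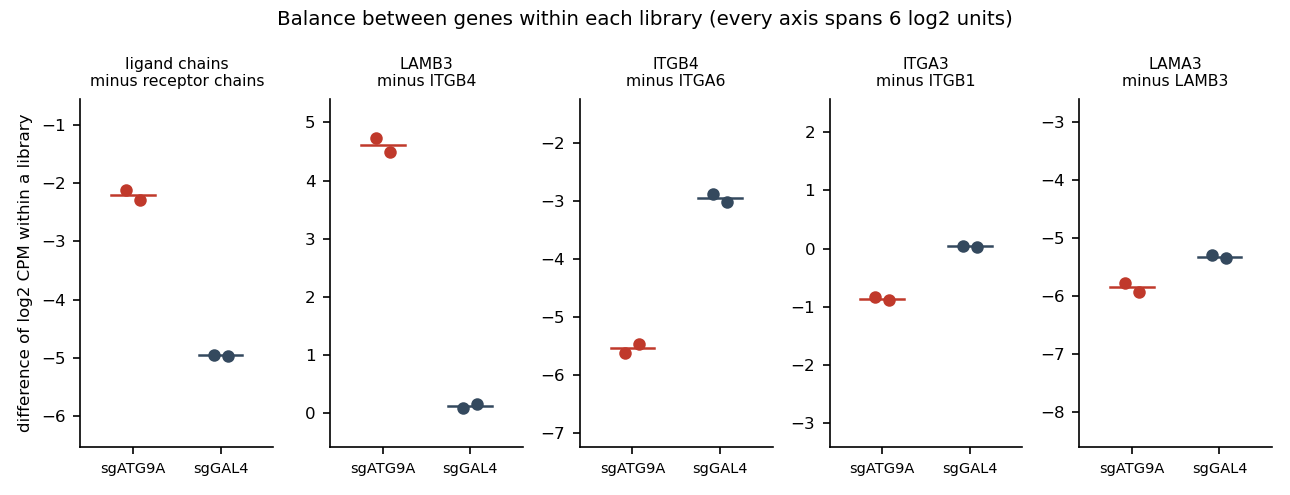
Log2 ratios between genes inside each library, as differences of log2 CPM, with sgATG9A to the left of sgGAL4, one point per library and a line at the mean, on axes of equal span. LAMB3 over ITGB4 stands at 4.73 and 4.48 in sgATG9A cells and at 0.08 and 0.16 in sgGAL4 cells.

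Other genes of these families came from lists written with earlier results known. Of 9 other laminin chains listed, 7 were tested and 3 were called lower, among them LAMA5 at -0.59 ± 0.05 and LAMB1 at -0.58 ± 0.05, chains of other laminins. LAMB2 was lower by a log2 difference of -0.23 ± 0.06. The median was -0.23 over the 7. Of 8 other laminin receptors, 2 were called higher, the syndecan SDC4 at 0.73 ± 0.05 and the β1 chain ITGB1 at 0.29 ± 0.04, and 3 lower, among them BCAM at -0.77 ± 0.06. Of the 9 other integrin chains tested, 2 were higher (ITGAV at 0.54 ± 0.05 and ITGA5 at 0.36 ± 0.05) and 1 was lower (ITGB8 at -0.80 ± 0.15).

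Keratins form the filaments to which hemidesmosomes join. Of 9 linkers and keratins tested, 5 were called lower in sgATG9A cells and the other 4 were not called, with a median of -0.79. Those called lower were all keratins, and none of the linkers was called. Among those lower were the simple epithelial keratins KRT8 at -0.73 ± 0.04, KRT18 at -0.83 ± 0.05 and KRT7 at -0.79 ± 0.05. KRT14, a basal keratin with 0.749 CPM in sgATG9A cells and 1.73 CPM in sgGAL4 cells on average, was at -1.20 ± 0.35. Of 17 basement membrane partners and proteases, 5 were higher and 3 lower, with MMP9 at 1.35 ± 0.30 and the anchoring fibril chain COL7A1 at 0.53 ± 0.07. The network collagens COL4A1 and COL4A2 were at -0.32 ± 0.05 and -0.29 ± 0.05. MMP9 was low, with 59 and 54 counts in sgATG9A cells against 27 and 17 counts in sgGAL4 cells.

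Of 8 other claudins tested, 1 was called higher, CLDN12 at 0.73 ± 0.06, and 2 were called lower, CLDN4 at -0.82 ± 0.25 and CLDN5 at -1.86 ± 0.63. CLDN5 had 2 and 5 counts in sgATG9A cells against 14 and 12 counts in sgGAL4 cells. It passed the filter on low counts only through its sgGAL4 libraries, so nothing is read from its call. CLDN4 had 48 and 32 counts in sgATG9A cells against 76 and 65 counts in sgGAL4 cells. The difference of CLDN5 was -2.63 without sgATG9A replicate 2 and -1.37 without sgATG9A replicate 1. Of 16 tight junction partners 2 were higher and 2 lower, with a median of 0.02, and CGNL1, a cingulin relative, was at -1.58 ± 0.29. CGNL1 was low, with 18 and 24 counts in sgATG9A cells against 67 and 58 counts in sgGAL4 cells. The polarity genes PRKCI and PARD6B were at 0.23 ± 0.05 and 0.40 ± 0.11, and the scaffold gene TJP3 was at -0.60 ± 0.20. Of 9 tetraspanins 1 was called, TSPAN6 at -0.22 ± 0.07. Of 18 integrin adaptors and adhesion kinases 2 were higher and 4 lower, including FERMT1, a kindlin, at 0.71 ± 0.11, LIMS1 at 0.40 ± 0.05 and LIMS2 at -0.56 ± 0.09. Over all 123 listed genes 101 were tested, 13.9% were called higher and 23.8% lower, and their median was -0.07. Of all genes tested, 8.93% were called higher and 7.42% lower. Because the lists were written with earlier results known, nothing is read from these shares or from the counts per list. The calls of LAMB2, KRT14, MMP9, TSPAN6, CLDN4, CLDN5, PRKCI, PARD6B, TJP3 and ITGB8 were lost with no filter on low counts, and all of these but ITGB8 also when some library was left out. With DESeq2 the calls of KRT14, TSPAN6, CLDN4, PARD6B and TJP3 were lost as well, and CLDN5 was not among the genes it tested.

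**Figure D4:**
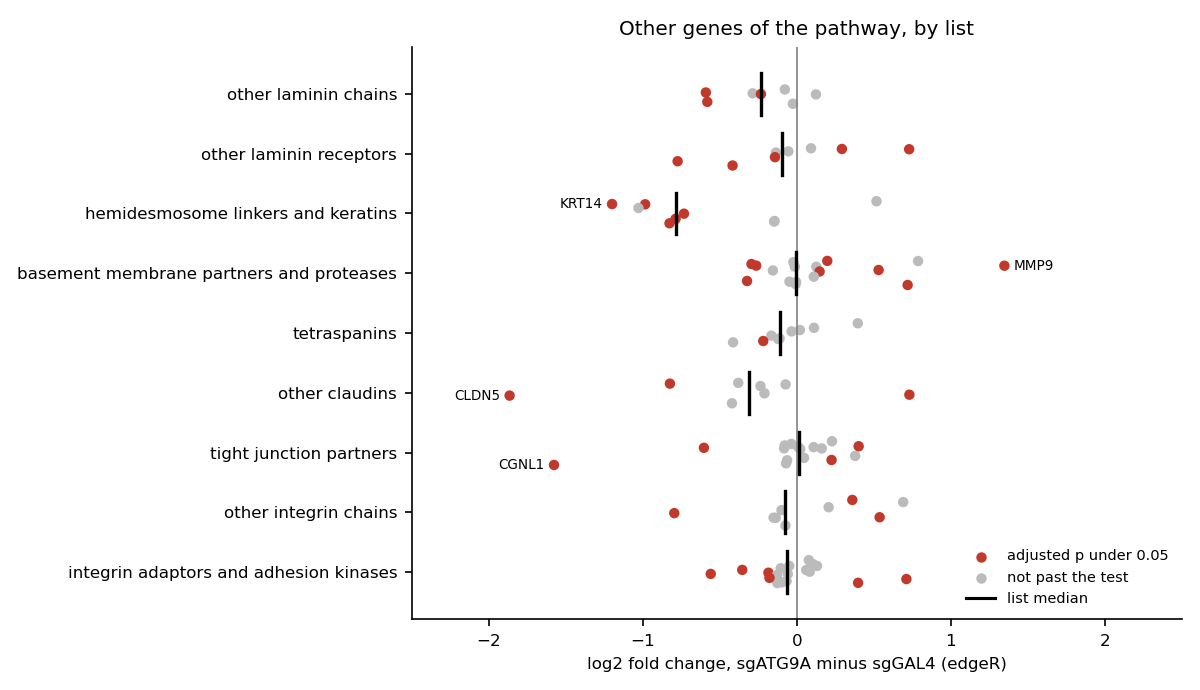
Log2 difference, sgATG9A minus sgGAL4, of the tested genes of each list, one point per gene, with called genes in red, others in grey and a bar at the list median. The linkers and keratins lie mostly below 0, with a median of -0.79, and the tight junction partners lie around a median of 0.02.

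The patterns nearest to the extreme genes were found by the distance between centred log2 CPM over the 4 libraries, so it mostly ranks genes by the size of the group difference. Nearest to CLDN1 were SOD2, a mitochondrial superoxide dismutase, at a distance of 0.0645, VEGFC at 0.158 and IRAK2 at 0.169. VEGFC averaged 21.8 CPM in sgATG9A cells and 2.30 CPM in sgGAL4 cells. IRAK2 averaged 27.5 CPM in sgATG9A cells and 3.15 CPM in sgGAL4 cells. VEGFC and IRAK2 thus met the limit on average level through their sgATG9A libraries. SOD2 averaged 301 CPM in sgATG9A cells and 34.7 CPM in sgGAL4 cells. Nearest to ITGB4 were PRAG1 at 0.246, CAVIN2, a caveolar coat protein, at 0.558 and PPME1 at 0.752. PRAG1 averaged 5.75 CPM in sgATG9A cells and 26.7 CPM in sgGAL4 cells, so it met that limit through its sgGAL4 libraries. CAVIN2 averaged 13.9 CPM in sgATG9A cells and 109 CPM in sgGAL4 cells.

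**Figure D5:**
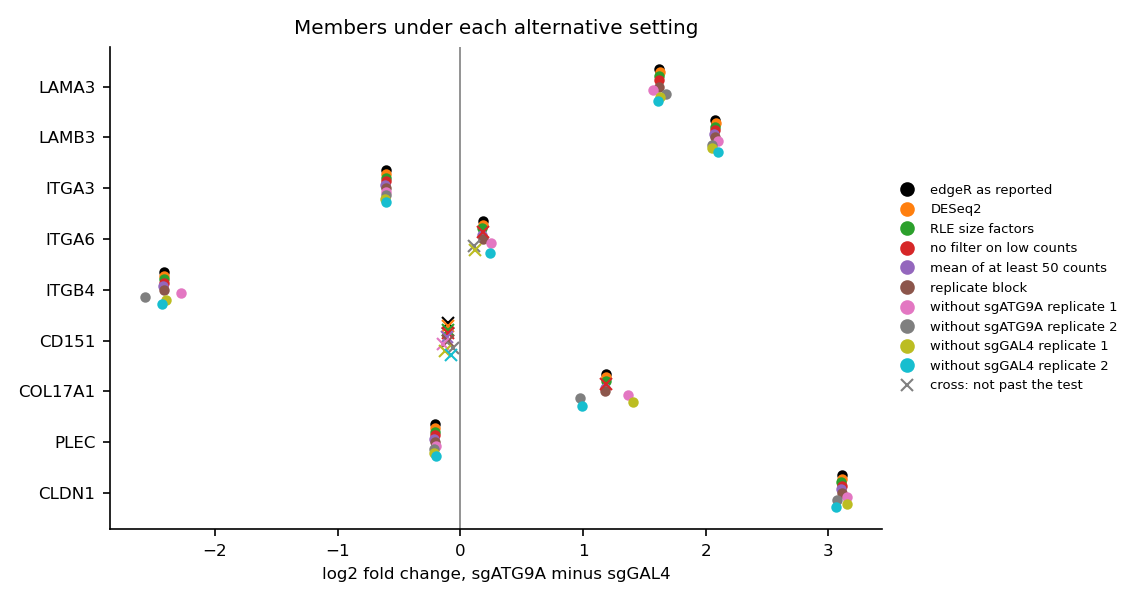
Log2 difference of each of the 9 genes under each alternative fit, one colour per fit with the reported value in black, and crosses where the call was not made. ITGB4 stays between -2.57 and -2.27 and CLDN1 between 3.07 and 3.15.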

How the data were processed

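Bulk RNA of OVCAR-8 cells was measured in 2 sgATG9A and 2 sgGAL4 libraries. The deposited gene table holds raw counts that the authors made with cutadapt, FastQC, STAR and featureCounts from uniquely mapped reads over exons of GRCh38, without strand. Symbols and exons came from GENCODE, where 58261 of 58381 IDs matched. The counts were filtered with filterByExpr and scaled by TMM in edgeR 4.0.16 (R 4.3.3). The 16141 genes left were compared by a quasi-likelihood fit, with two-sided p-values adjusted after Benjamini and Hochberg. The fit was tested on simulated data, and tables were made in Python 3.11.15. Whether replicates came from separate cultures is not stated beyond the label, so the p-values measure the spread of these libraries. The single-cell counts, deposited for mouse cells, were not used here. No per-sample column was left out. Alternatives were DESeq2 1.42.0, RLE size factors, no filter, a mean of at least 50 counts, leaving out each library, and the replicate number as a block. The members and lists were chosen with earlier results of these data known. The genes named are the 9, ATG9A, marker genes, the called genes of each list with an absolute log2 difference above 1 and up to 3 others with the smallest p, and the 3 genes nearest in pattern to CLDN1 and to ITGB4, among genes whose average log2 CPM, as edgeR computes it over the 4 libraries, reached 3. Beside these, 1 gene was left out of the lists and is not reported here. The total counts and 2 libraries per group limit the precision.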

Additional observations from a re-analysis of the deposited data

How the results depend on the processing

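None of the 44 named genes changed direction, and 6 of the 8 called members and 31 of the 43 called genes kept their call under every alternative in which they were tested. CD151 was called under none. Every alternative refitted the same 4 libraries, or all but one of them, in which the members were chosen. A kept call is therefore no further support, and leaving out a library left its group without replicates. The calls of ITGA6 and COL17A1 were not kept, ITGA6 under 3 of 9 alternatives and COL17A1 under 1. DESeq2 called 856 genes higher and 594 lower of 14362 tested, where edgeR called 1441 and 1198 of 16141. Of the listed genes, DESeq2 called 15 of 97 lower, where edgeR called 24 of 101. With no filter on low counts, 3 of the 9 genes were called higher, 8 listed genes higher and 11 lower, and 578 and 365 of all genes. Leaving out a library gave 4 to 5 of the 9 higher, 11 to 13 listed genes higher and 16 to 18 lower, and 893 to 1177 of all genes higher and 736 to 887 lower. The ligand minus receptor chain difference from the fitted changes was 2.80, and 2.71 to 2.89 when a library was left out. With a mean of at least 50 counts LAMA3 was not tested. With the replicate block, 1840 genes were called higher and 1558 lower, 5 and 3 of the 9, 17 and 28 listed genes, and the chain difference was 2.80. Nothing states that libraries with one number were made together, and the replicate differences of the groups correlated across genes at 0.0496, and at 0.1505 over genes with an average log2 CPM above 3. The cause of these shifts was not tested.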
